A study of Mus musculus with 2 samples.

Results

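The transcripts described are those of 35 genes of DNA replication and nucleotide synthesis, in mouse fetal liver erythroid progenitors that over-expressed the long noncoding RNA ESlncRNA. The 35 genes were picked by symbol, and all 35 were found among the 36413 gene and transcript names of the array by 42 non-control probes. Of these genes 28 had 1 probe and 7 had 2. All 35 passed the filter on dim probes, 34 of them with signal well above background in both channels on both arrays, and they were among 19892 genes tested.

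A cell that is about to divide copies its genome once, in S phase. Origins are licensed when the origin recognition complex, CDC6 and CDT1 load the ring-shaped MCM helicase, and geminin blocks CDT1 so that no origin is licensed again. CDC45 and the GINS complex then activate the helicase, polymerases alpha, delta and epsilon copy the strands, and the clamp PCNA, loaded by replication factor C, holds them on DNA. Ribonucleotide reductase, thymidylate synthase and thymidine kinase supply deoxynucleotides, and E2F transcription factors control many genes of the set. Early erythroid progenitors are a fast-dividing population, and most of these genes are switched off as red cells mature.

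Each of the 2 arrays was a two-colour hybridisation of total RNA from lineage-negative C57BL/6 fetal liver cells of stage E14.5. One channel held cells transduced with the vector alone (labelled Cy3) and the other cells transduced with ESlncRNA (labelled Cy5), both sorted as GFP-positive cells. The vector cells are the control and carry the same sorting marker. The dyes were not swapped, so any dye bias of a probe is part of both of its ratios. Values are log2 ratios of ESlncRNA over vector after loess normalisation, and a signal is the spot intensity of 1 channel in arbitrary units after scaling of the channels. "Rose" and "fell" mean an adjusted p under 0.05 from limma over all probes kept. The labels do not say whether the replicates were separate animals or cultures, so p-values measure only how far these arrays differ, and that spread may be technical. In bulk RNA, fewer cells of a type and less RNA per cell cannot be told apart.

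The over-expressed RNA was seen. Of 9 tested lincRNA probes between the probes of Eps15 and Ttc39a on chromosome 4, where this RNA is encoded, 8 rose. All 8 were well above background in the ESlncRNA channel only. The filter on dim probes kept them through that channel, so their number is no independent support. The other tested probe, above background in both channels, did not pass (0.05, limma adjusted p = 0.484). All these probes were chosen, with the files in view, by their 2 neighbours. The brightest, at 109076298 to 109076357 (mm9), had a log2 ratio of 2.21 ± 0.024 (SD, n = 2 arrays; limma adjusted p = 2.16e-07), and since its vector channel was not well above background, the RNA was at least 4.62-fold higher. Between 44.4% and 52.1% of spots were well above background per channel, and 0 spots were saturated. For 120 probes spotted 10 times with no spot marked, the mean ratios of the arrays differed by a median of 0.0240, and the noise between spots alone gives 0.0247. Single genes did differ between the arrays: Slc4a1, the red cell anion exchanger, chosen after its values were seen, had a vector signal of 2220 on the array of replicate 1 and 322 on that of replicate 2, so both arrays were kept as replicates.

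Markers of other cell types were lower in the ESlncRNA channel. Over all genes tested 26.3% rose and 36.8% fell with loess. All 12 granulocyte markers fell, with a summed signal of 1182393 and 1311063 for vector against 70306 and 83587 for ESlncRNA. All 11 macrophage markers tested, all 6 mast cell and basophil markers tested, all 8 megakaryocyte markers and 7 of 9 endothelial and hepatocyte markers fell too. Some of these were dim with ESlncRNA, such as Cdh5 (140 for vector and 62.3 for ESlncRNA, replicate 1) and Mrc1 (92.6 and 64.2). A marker near background with ESlncRNA can pass the filter on dim probes only through the vector channel. The counts that fell are therefore no independent support. Summed over each list, the vector and ESlncRNA signals of replicate 1 were 19785 and 5627 (macrophage), 32110 and 3291 (mast cell and basophil), 78366 and 19929 (megakaryocyte) and 8600 and 3277 (endothelial and hepatocyte), and each sum was lower with ESlncRNA for replicate 2 as well. C1qa and Fcer1a did not pass the filter on dim probes. With median centring 1 granulocyte, 1 macrophage and 1 endothelial or hepatocyte marker rose. Of 12 erythroid markers 9 rose, among them Hba-a1, an alpha-globin gene (0.43), Kit, the stem cell factor receptor (0.44), Gata1, the erythroid master factor (0.50), Epor, the erythropoietin receptor (0.62), and Tfrc, the transferrin receptor (0.66). Hbb-b1 did not pass (0.04), nor did Alas2 (-0.02 on the array of replicate 1 and 0.77 on that of replicate 2) and Slc4a1 (-0.45 and 1.48), whose arrays pointed opposite ways. The summed erythroid signal was 369857 and 323082 for vector and 478285 and 424493 for ESlncRNA. These shifts of cell type markers move with every result below, and their part in them was not tested.

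The promoters of 8 of the genes hold a letter pattern of the kind that E2F factors bind, and these stretches are shown because E2F factors are themselves among the genes measured. Promoter windows were found by symbol for 30 of the 35 genes in RefSeq (GRCm38.p6), and the 250 bases before each transcript start were searched on both strands for TTTCCCGC, TTTCGCGC, TTTGCCGC and TTTGGCGC. The capitals mark the match, and each line runs 5′ to 3′ on the strand of the gene.
Hells (fell): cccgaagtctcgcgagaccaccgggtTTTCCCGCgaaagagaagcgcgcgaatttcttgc
Uhrf1 (fell): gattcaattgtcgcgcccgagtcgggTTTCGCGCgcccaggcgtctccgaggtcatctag
Mcm6 (fell): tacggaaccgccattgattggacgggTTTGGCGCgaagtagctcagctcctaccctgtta
Rfc3 (not passed): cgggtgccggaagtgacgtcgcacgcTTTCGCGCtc
Pola1 (not passed): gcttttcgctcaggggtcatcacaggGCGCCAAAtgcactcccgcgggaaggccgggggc
Mcm5 (rose): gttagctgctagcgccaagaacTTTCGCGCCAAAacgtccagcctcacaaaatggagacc
Mcm7 (rose): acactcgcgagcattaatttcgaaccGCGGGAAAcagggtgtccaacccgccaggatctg
Cdc6 (rose): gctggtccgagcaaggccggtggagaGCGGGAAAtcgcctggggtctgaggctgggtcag

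The stretch of Hells lies at chr19:38930902-38930961 on the forward strand, that of Uhrf1 at chr17:56304102-56304161 (forward) and that of Mcm6 at chr1:128359719-128359778 (reverse). Those of Mcm5 at chr8:75109334-75109393 and Cdc6 at chr11:98907987-98908046 are on the forward strand, and that of Mcm7 at chr5:138172015-138172074 is on the reverse strand. The stretches of Rfc3 at chr5:151651209-151651244 and Pola1 at chrX:93632260-93632319 are on the reverse strand. In Mcm5 the capitals hold 2 overlapping matches, and the window of Mcm6 holds 3 matches, of which 1 is shown. The 30 genes had 36 windows, of which 8 (22.2%) held a match, against 1.86% of the 32851 windows of all genes. The CCAAT box, searched as CCAAT on both strands, was in 58.3% of the windows of the set and in 33.8% of all windows. A match was found in 3 of the 3 genes that fell and had a window, in 3 of 17 that rose and in 2 of 10 that did not pass. These calls are those with loess, and Hells, Uhrf1 and Mcm6 rose with median centring (0.22, 0.55 and 0.83). Gins2, which also fell with loess, had no window. A link between a match and the direction was not tested. A match describes letters only and shows no binding.

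Most of the genes that moved were higher with ESlncRNA, and all moves were small. Of the 35 genes 19 rose (54.3%) and 4 fell (11.4%), and 12 did not pass; over all genes tested 26.3% rose and 36.8% fell. In all 23 of 35 changed (65.7%), near the 63.1% of all genes that changed, while 82.6% of the calls in the set were higher against 41.7% of the calls over all genes. The median log2 ratio was 0.14, against -0.03 over all genes tested. No gene of the set was at least 1.5-fold higher or lower on both arrays, where 3.24% of all genes were at least that much higher and 13.5% that much lower. The largest mean ratio was that of Rrm2, at 1.44-fold higher, and the lowest that of Hells, at 1.19-fold lower. On the 2 arrays 25 genes were higher on both and 4 were lower on both, and the arrays differed by a median of 0.062 for a gene.

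**Figure D1:**
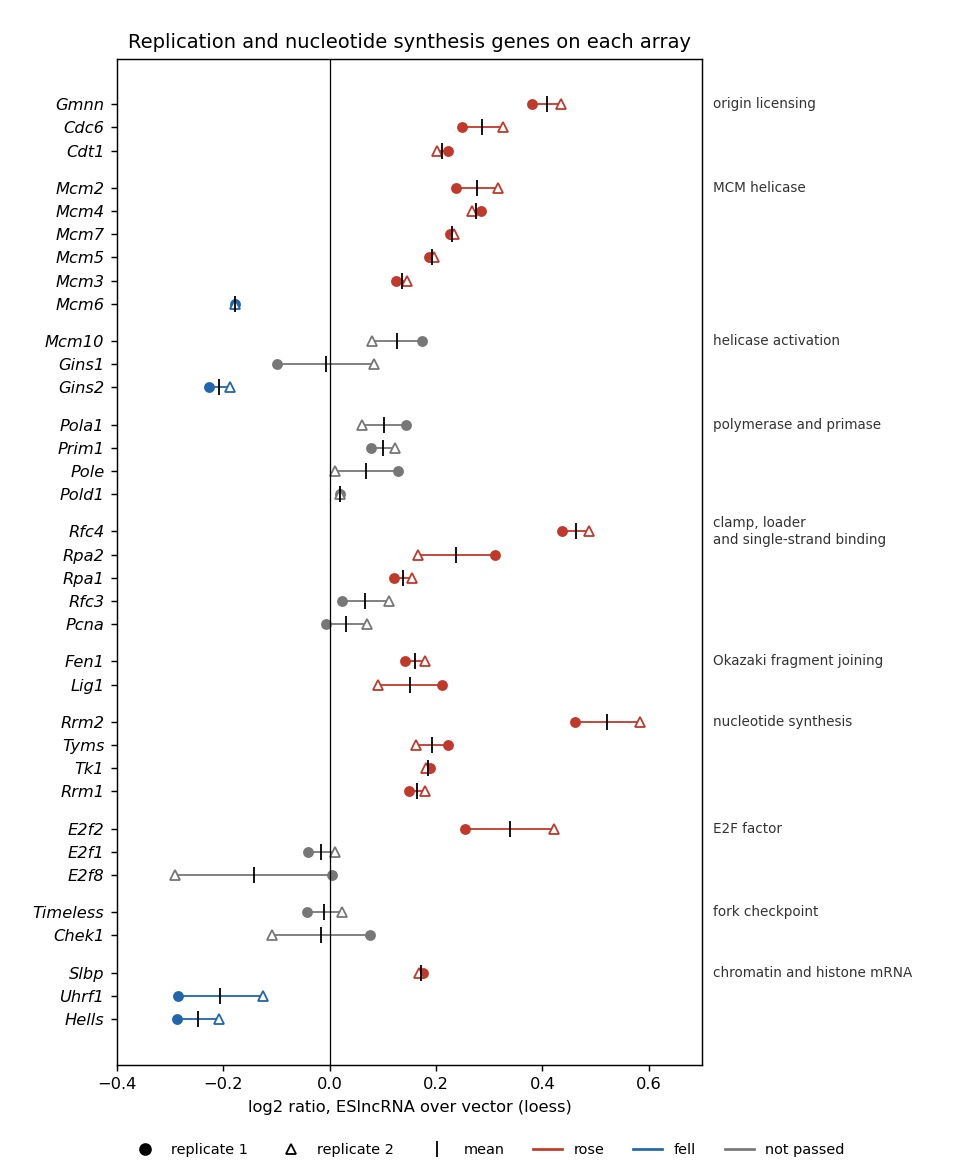
Log2 ratio of ESlncRNA over vector after loess normalisation (x axis) for the 35 genes, grouped by role; the circle is replicate 1, the triangle replicate 2 and the bar their mean. With loess 19 genes rose, 4 fell (Mcm6, Gins2, Uhrf1 and Hells, which turn positive with median centring) and 12 did not pass; E2f8 has the widest gap between arrays.

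The direction rests in part on how the arrays are scaled. With median centring in place of loess 34 of the 35 genes rose and 0 fell, where 62.9% of all genes rose and 18.3% fell. With the scanner software's own processed signals 18 rose and 1 fell (34.3% and 23.7% of all genes). With a normexp offset of 0, 9 rose and 2 fell (19.8% and 31.7% of all genes). With the deposited log2 values 11 rose and 3 fell (18.1% and 31.9% of all genes). Without the array as a block that pairs the channels, 9 rose and 1 fell (17.4% and 28.9% of all genes). Median centring moved the median of all genes from -0.03 to 0.34, and the processed signals moved it to 0.11. The median of the 35 genes lay above that of all genes by 0.17 under loess, by 0.50 under median centring and by 0.09 for the processed signals. At least 1.5-fold higher on both arrays were 26 of the 35 genes with median centring, and 0 with loess. Among the 4 genes that fell with loess, median centring lifted brighter probes more. Dimmest first, Hells went from -0.25 to 0.22, Gins2 from -0.21 to 0.39, Uhrf1 from -0.21 to 0.55 and Mcm6 from -0.18 to 0.83. Chek1, the dimmest gene of the set, was 0.047 with median centring and did not pass. The set was bright (median log2 intensity 13.5 against 9.21 for all genes). The part of brightness in the counts with median centring was not tested. Over the 6 scalings compared, 26 of the 35 genes had a ratio above 0 each time, and 26 lay above the median of all genes each time. The 8 that rose under all 6 scalings were Cdc6, Cdt1, Gmnn, Mcm2, Mcm4, Mcm7, Rfc4 and Rrm2. None fell under all 6. The share of all genes that meet these rules under all 6 scalings is not given here, so these counts are not set against it. Mcm6, Gins2, Uhrf1 and Hells fell with loess and rose with median centring, and of these Hells alone stayed below the median of all genes under each scaling.

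**Figure D2:**
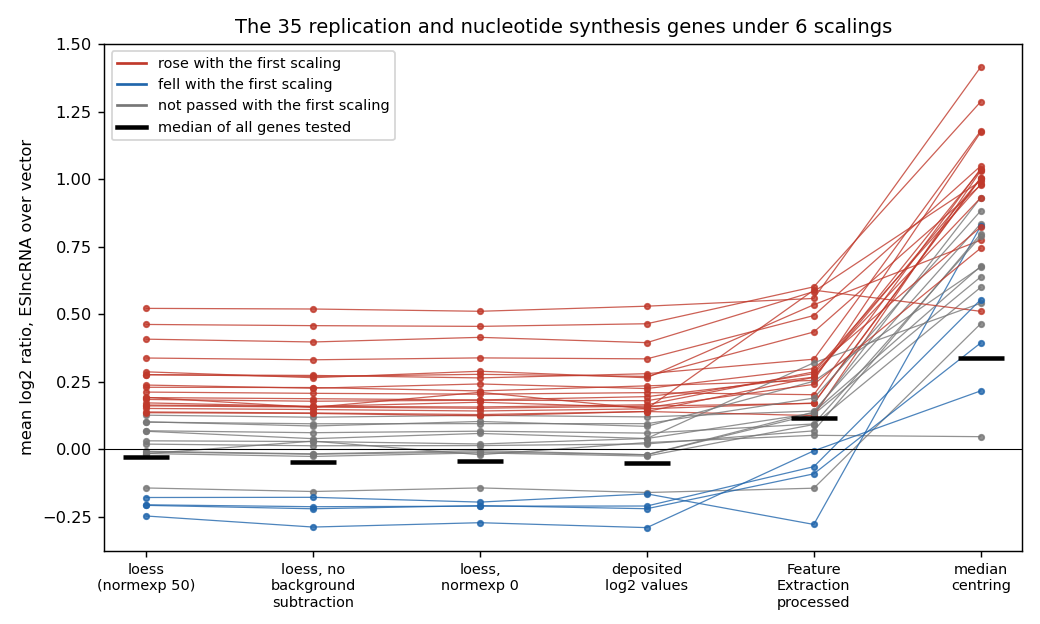
Mean log2 ratio of ESlncRNA over vector (y axis) of each of the 35 genes under 6 scalings of the same 2 arrays (x axis), coloured by the call under loess with normexp background; the black bars are the median of all genes tested. The first 4 scalings give nearly level lines, and median centring lifts the genes and the median of all genes, to 0.84 and 0.34.

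The licensing genes rose as a group, and all 3 did so under each of the 6 scalings. Gmnn encodes geminin, the inhibitor of CDT1. Its signal was 3058 for vector and 3980 for ESlncRNA for replicate 1, and 3374 and 4564 for replicate 2. Both arrays had the higher signal with ESlncRNA, and the log2 ratio was 0.41 ± 0.039 (SD, n = 2 arrays; adjusted p = 0.000525). Cdc6, the ATPase that helps to load the helicase, went from 1174 (vector) to 1395 (ESlncRNA) for replicate 1 and from 1334 to 1671 for replicate 2 (0.29 ± 0.054, adjusted p = 0.00284). Its second probe had a ratio of 0.38 and rose as well (adjusted p = 0.000919). Cdt1, the loading factor that geminin binds, went from 22634 to 26416 and from 22322 to 25658 (0.21 ± 0.016, adjusted p = 0.00867).

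Of the 6 subunits of the MCM helicase, the motor that unwinds DNA ahead of the fork, 5 rose, and Mcm6 fell with loess but not with median centring. Over all genes 26.3% rose and 36.8% fell with loess. Mcm2 had ratios of 0.24 and 0.32 on the arrays of replicates 1 and 2, and its signal rose from 8904 to 10496 and from 9033 to 11247 (mean 0.28, adjusted p = 0.0034). Mcm4 had ratios of 0.28 and 0.27, with signals of 37969 and 37532 for vector and 46217 and 45202 for ESlncRNA (adjusted p = 0.00275). Mcm7 had 0.23 on both arrays (adjusted p = 0.00609), and Mcm5 had 0.19 and 0.20 (adjusted p = 0.0129). Mcm3, at 0.13 and 0.15, was just inside the threshold (adjusted p = 0.0459) and rose under 2 of the 6 scalings.

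Mcm6 was the exception within the ring. Its signal was 97193 for vector and 85883 for ESlncRNA for replicate 1, and 83101 and 73434 for replicate 2, lower with ESlncRNA on both. The ratio was -0.18 on each array (adjusted p = 0.0169 with loess), and it was 0.83 with median centring. The ratio of Mcm6 minus the mean ratio of the other 5 subunits was -0.39 on one array and -0.41 on the other, and this difference, picked after the values were seen, ranged from -0.56 to -0.25 over the 6 scalings. The gap between Mcm6 and its partners therefore did not turn with the scaling, while the sign of Mcm6 itself did. Mcm6 is read by 1 probe, at 130228178 to 130228237 on chromosome 1 (mm9, reverse strand).

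None of the 3 genes of helicase activation rose with loess, and all 3 rose with median centring. Gins2, a subunit of the GINS complex, went from 4478 to 3826 and from 4781 to 4196, lower with ESlncRNA on both arrays. Its ratio was -0.21 ± 0.027 (adjusted p = 0.00979 with loess), and 0.39 with median centring. Gins1, its partner, was lower on the array of replicate 1 (-0.10) and higher on that of replicate 2 (0.08), and did not pass. Mcm10, which helps to start the assembled helicase, was 0.17 and 0.08 and lay just outside the threshold (mean 0.13, adjusted p = 0.0714).

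The polymerase and primase genes of the set did not pass the test with loess. Pola1, the catalytic subunit of polymerase alpha, had a mean ratio of 0.10 (0.14 and 0.06 on the arrays), and Prim1, the primase that makes the RNA primer, also 0.10 (0.08 and 0.12). Pole, the catalytic subunit of the leading-strand polymerase epsilon, had 0.07 from the 1 of its 2 probes that passed the filter on dim probes, and Pold1, that of polymerase delta, 0.02. All 4 means lay above the median of all genes with loess. Those of Pola1 and Prim1 did so under all 6 scalings, and those of Pold1 and Pole under 5. A p that misses the threshold does not show that these genes were unchanged, and all 4 rose with median centring.

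Within replication factor C, the clamp loader, the 2 subunits of the set parted in size. Rfc4, one of its small subunits, had a signal of 20920 for vector and 28313 for ESlncRNA for replicate 1, and 19552 and 27426 for replicate 2. It was 1.38-fold higher (0.46 ± 0.037, adjusted p = 0.000289) and rose under all 6 scalings. Rfc3, another small subunit, had ratios of 0.02 and 0.11 and did not pass (adjusted p = 0.29). Rfc4 exceeded Rfc3 by 0.41 and 0.38 on the arrays, a difference picked after the values were seen, with a range of 0.28 to 0.75 over the 6 scalings. Pcna, the clamp itself, had -0.0078 on the array of replicate 1 and 0.07 on that of replicate 2, with signals from 39353 to 42811 in the 4 channels. Both genes of the set for RPA, the single-strand binding protein, rose, Rpa1 by 0.12 and 0.16 (adjusted p = 0.0439) and Rpa2 by 0.31 and 0.17 (adjusted p = 0.0102). The second probe of Rpa1 had 0.20 and 0.26 (mean 0.23, limma adjusted p = 0.00638) and rose as well. Read by its brighter probe, Rpa1 rose under 3 of the scalings, and Rpa2 rose under 4.

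Rfc4 was read by 2 probes that lie far apart in the gene, and both rose. The brighter one is at chr16:23114024-23114083 and the other at chr16:23120982-23121041 (mm9, reverse strand). The second probe had ratios of 0.28 and 0.32 (mean 0.30, adjusted p = 0.00197), 0.16 below the brighter probe. It is shown because it covers the P-loop, the ATP-binding motif that marks the clamp loader subunits as ATPases, with the codons of the motif in capitals.
Rfc4: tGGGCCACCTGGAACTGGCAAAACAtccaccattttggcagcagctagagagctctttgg

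The genes that finish the lagging strand rose together, by little. Fen1, the flap nuclease that trims Okazaki fragments, had ratios of 0.14 and 0.18 (adjusted p = 0.0262), and its signal went from 26527 to 29271 and from 24410 to 27648. Lig1, the ligase that seals them, had 0.21 and 0.09 (adjusted p = 0.0462), with signals of 27795 and 28164 for vector and 32193 and 29993 for ESlncRNA. Both were higher with ESlncRNA on both arrays. Each passed with loess and with median centring and did not pass under the other 4 scalings, where both ratios stayed above 0.

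All 4 genes of deoxynucleotide supply rose with loess, where 26.3% of all genes rose. Rrm2, the small subunit of ribonucleotide reductase and the part of it that is made anew in each S phase, had the highest ratio of the set. Its signal was 33649 for vector and 46321 for ESlncRNA for replicate 1, and 31242 and 46790 for replicate 2, so that each ESlncRNA value lay above each vector value. The log2 ratio was 0.52 ± 0.086 (SD, n = 2 arrays; adjusted p = 0.000255). Rrm1, the large subunit, moved from 20497 to 22723 and from 22111 to 25036 (0.16 ± 0.022, adjusted p = 0.024). Rrm2 exceeded Rrm1 by 0.31 on the array of replicate 1 and by 0.40 on that of replicate 2, a difference that was picked after the values were seen and that ranged from 0.27 to 0.43 over the 6 scalings.

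Tk1, the thymidine salvage kinase of dividing cells, had ratios of 0.19 and 0.18 (adjusted p = 0.0148). Tyms, thymidylate synthase, had 0.22 and 0.16 (adjusted p = 0.0144). The Tyms probe was dim, with signals of 275 and 307 for vector and 321 and 344 for ESlncRNA, and its ratio ranged from 0.15 to 0.59 over the scalings.

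The E2F factors parted. E2f2, an activating E2F that is prominent in red cell precursors, went from 9827 to 11719 and from 9003 to 12064, higher with ESlncRNA on both arrays. Its ratio was 0.34 ± 0.12 (adjusted p = 0.00273), and it passed under 5 of the 6 scalings, the deposited log2 values being the exception. E2f1, another activating factor, had -0.04 and 0.01 and did not pass (adjusted p = 0.797). E2f8, an atypical E2F that represses, had 0.0045 on the array of replicate 1 and -0.29 on that of replicate 2, which was the widest gap between arrays in the set, and did not pass (adjusted p = 0.146). E2f2 exceeded E2f1 by 0.35, with a range of 0.35 to 0.45 over the scalings, as a difference picked after the values were seen.

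The fork checkpoint genes did not pass. Timeless, which keeps the helicase and polymerases coupled, had -0.04 and 0.02, and its second probe had 0.12 and 0.07. Chek1, the checkpoint kinase, was close to background, with signals from 85.2 to 98.3, and was not well above background in the ESlncRNA channel of replicate 2. Its 2 arrays pointed opposite ways (0.08 and -0.11), and its signal was too close to background to place the channels in order.

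The genes that deal with new chromatin went both ways with loess. Hells, a remodeller needed for DNA methylation, went from 1162 to 953 and from 1212 to 1049, lower with ESlncRNA on both arrays. Its ratio was -0.25 ± 0.056 (adjusted p = 0.00559 with loess), it was -0.0056 with the processed signals, and it rose to 0.22 with median centring. Uhrf1, which brings the maintenance methyltransferase to newly copied DNA, had -0.29 and -0.13 (adjusted p = 0.0202 with loess), and 0.55 with median centring. Slbp, which binds the ends of the replication-dependent histone messages, had 0.18 and 0.17 (adjusted p = 0.0195).

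The fall of Uhrf1 was seen by its brighter probe, at chr17:56462770-56462829, and not by its second. The second probe had ratios of 0.12 and 0.0054 (mean 0.06, adjusted p = 0.339). It was far dimmer, with signals from 272 to 335 against 12887 to 16667 for the brighter probe. The fall of Uhrf1 passed under 2 of the 6 scalings. The brighter probe minus the second gave -0.27, and with the mean of both probes 3 genes of the set fell in place of 4. Slbp gave the opposite case, as its 2 probes differed by 0.013 and both rose. The sequences of the second Uhrf1 probe and of both Slbp probes are printed. All 3 are open in at least 1 forward reading frame, and the brighter Uhrf1 probe, not printed, is open in 1. An open frame in 60 bases does not by itself place a probe in coding sequence. Their place in exons or untranslated regions was not analysed here.
Uhrf1 second probe: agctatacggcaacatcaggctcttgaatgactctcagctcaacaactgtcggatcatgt
Slbp brighter probe: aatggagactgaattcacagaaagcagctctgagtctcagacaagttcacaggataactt
Slbp second probe: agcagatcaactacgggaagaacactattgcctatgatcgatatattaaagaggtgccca

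Hells and Gins2, both lower with loess, rest on 1 probe each, which are printed because those calls depend on them. The probe of Hells lies at chr19:39039914-39039973 on the forward strand and that of Gins2 at chr8:123112627-123112686 on the reverse strand (mm9).
Hells: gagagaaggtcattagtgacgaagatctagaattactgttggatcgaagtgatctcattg
Gins2: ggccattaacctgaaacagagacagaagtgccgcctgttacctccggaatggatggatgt

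The probes of the set were bright. The mean log2 intensity of the 35 genes' probes ran from 6.52 for Chek1 to 16.4 for Mcm6, with a median of 13.5 against 9.21 for all genes. Among the 6 genes with 2 tested probes, the pair gave the same call in 5, and Uhrf1 was the exception.

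**Figure D3:**
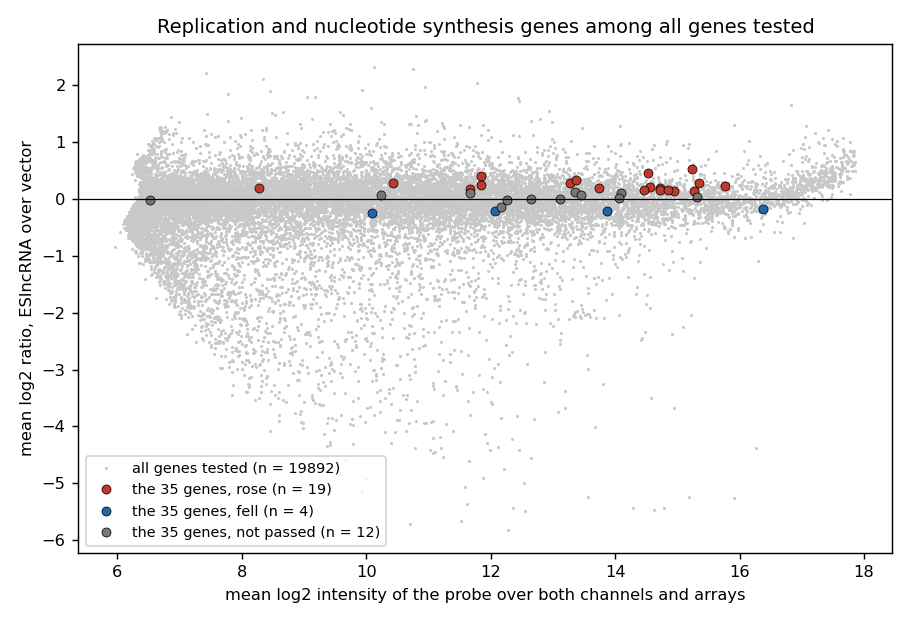
Mean log2 ratio of ESlncRNA over vector after loess (y axis) against mean log2 intensity of the probe (x axis); grey points are the 19892 genes tested and coloured points the 35 genes by call. The 35 genes lie in a narrow band from -0.25 to 0.52, while the grey points reach from -5.81 to 2.32; the 4 blue points turn positive with median centring.

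Many of these proteins work in complexes whose other subunits are not among the 35, so the 36 subunits of 8 replication complexes were set side by side, a grouping made after the values were seen. Of the 36 subunits 20 rose, 6 fell and 10 did not pass with loess, where 26.3% of all genes tested rose and 36.8% fell. Under all 6 scalings 11 of the 36 rose, with no such share of all genes at hand. Part of the 36 are among the 35 genes, so these counts overlap with those above. In 4 of the 8 complexes some subunits rose and others fell with loess. In replication factor C, Rfc4 rose while Rfc2 (-0.49, adjusted p = 0.000197) and Rfc1, the large subunit (-0.45), fell with loess. Rfc2 and Rfc1 were positive with median centring, at 0.24 and 0.23, yet both stayed below the median of all genes under each of the 6 scalings, where Rfc4 stayed above it. Rfc5 did not pass (-0.11).

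Polymerase delta had the widest range of the 8 complexes with loess, 1.03 between its highest and its lowest subunit. Pold4, its smallest subunit, had -0.76 and -0.70 on the arrays and fell under all 6 scalings. Its signal went from 1246 to 737 and from 1245 to 769. Pold2 rose (0.30) under all 6, and Pold1 and Pold3 did not pass (0.02 and -0.07). In GINS, Gins4 rose (0.24) while Gins2 and Gins3 (-0.17) fell with loess; both were positive with median centring.

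The origin recognition complex marks the sites where the MCM ring is loaded. Of its 6 subunits 5 rose with loess, where 26.3% of all genes rose. The highest was Orc5 at 0.75 and 0.73 (adjusted p = 2.8e-05), whose signal went from 671 to 1131 and from 758 to 1259. Orc2 (0.39), Orc1 (0.37), Orc6 (0.24) and Orc3 (0.19) rose too, and Orc4 did not pass (-0.04). Orc5, Orc2 and Orc6 rose under all 6 scalings, and Orc1 and Orc3 under 5. All 3 subunits of RPA rose with loess. Rpa2 minus Rpa1 was 0.10 with loess and ranged from -0.18 to 0.11 over the 6 scalings, so their order turned. With the mean of both Rpa1 probes the difference was 0.05 with loess. In polymerase epsilon Pole3 (0.56) and Pole2 (0.21) rose under all 6 scalings, beside Pole, which did not pass with loess. In the primase and polymerase alpha complex, Prim2 (0.38) and Pola2 (0.19) rose beside Prim1 and Pola1, which did not pass with loess.

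**Figure D4:**
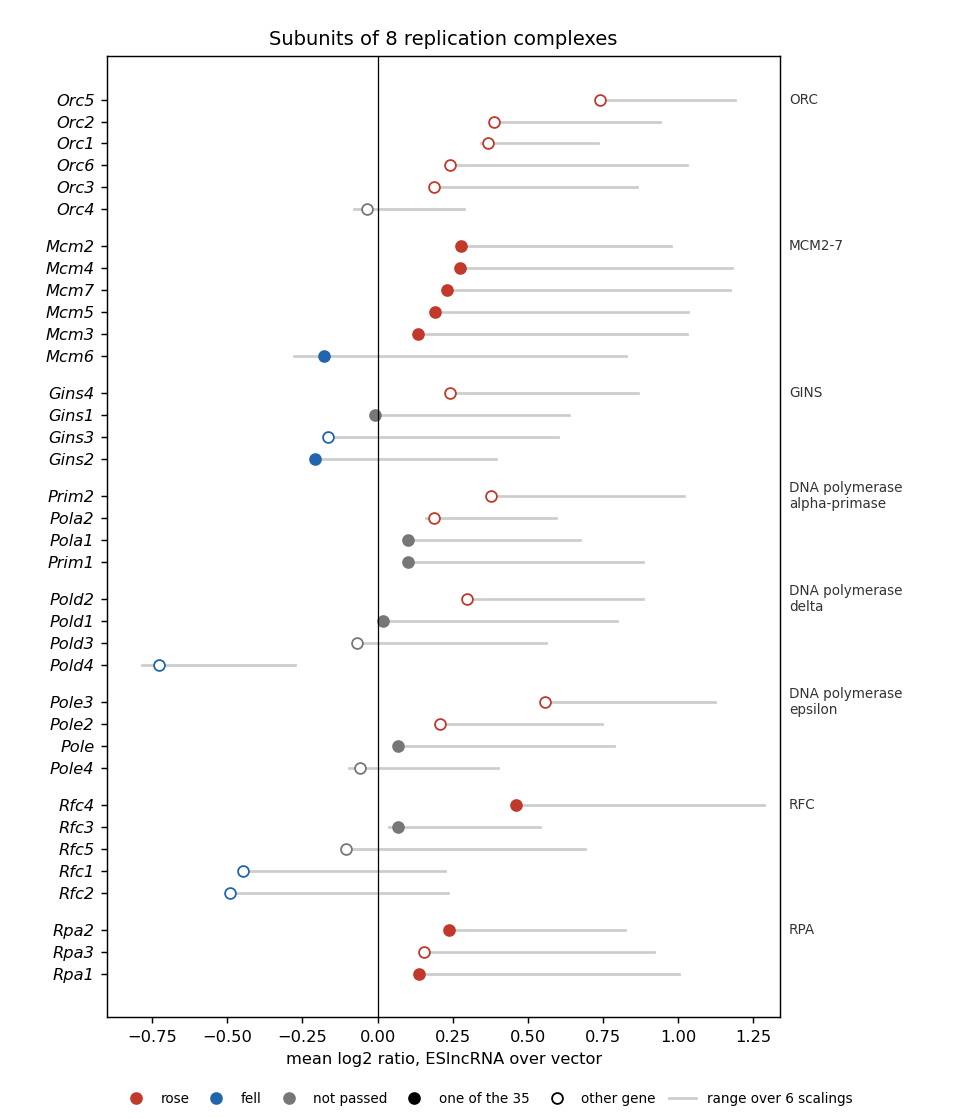
Mean log2 ratio of ESlncRNA over vector after loess (x axis) of the 36 subunits of 8 replication complexes; filled points belong to the 35 genes, open points are other subunits, and grey bars span the lowest to the highest ratio over 6 scalings. Rfc4 stands apart from Rfc1 and Rfc2, Pold4 from the other subunits of polymerase delta, and Mcm6 from its partners; of the 6 blue points Pold4 alone is below 0 under every scaling.

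The wider pathway was read from lists chosen with earlier results known. Of 46 other genes of the replication machinery 23 rose, 8 fell and 15 did not pass with loess, with a median of 0.14, equal to that of the 35 genes at this precision. Thus 50% rose and 17.4% fell, against 26.3% and 36.8% of all genes. With median centring 44 rose and 1 fell (median 0.71), where 62.9% of all genes rose. With the processed signals 27 rose and 3 fell, where 34.3% of all genes rose. Recql4, a helicase of replication start, had 0.61 (adjusted p = 7.5e-05), and with Orc5 and Pole3 it was among the 3 highest that rose. The lowest were Pold4, Cdc45, the helicase activator (-0.43 and -0.65), and Rfc2.

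Nucleotide synthesis beyond the 4 genes of the set went both ways with loess. Of 35 genes tested, out of 36 listed, 10 rose, 9 fell and 16 did not pass, with a median of -0.02. Thus 28.6% rose, near the 26.3% of all genes, and 25.7% fell, against 36.8% of all genes. With median centring 30 rose and 2 fell, where 62.9% of all genes rose. Mthfd1, a folate enzyme (0.49), Cad, which starts pyrimidine synthesis (0.35), and Dut, the dUTPase (0.34), rose. Adssl1, an adenylosuccinate synthase, had the lowest ratio, with a signal that went from 10016 to 488 and from 10240 to 428 (-4.47, adjusted p = 6.46e-08). Ctps2, a CTP synthase, had -1.97, and Nme2, a nucleoside diphosphate kinase, had -0.58 with loess and 0.44 with median centring.

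Of 15 other genes of the E2F and retinoblastoma network 7 rose, 2 fell and 6 did not pass with loess, with a median of 0.08. Thus 46.7% rose and 13.3% fell, against 26.3% and 36.8% of all genes. With median centring all 15 rose (median 0.59), where 62.9% of all genes rose. With the processed signals 10 rose and 0 fell, where 34.3% of all genes rose. Tfdp2, a partner of E2F proteins (0.56), E2f4 (0.45) and E2f6 (0.30) were the 3 highest. Lin54, a DNA-binding subunit of the DREAM complex (-0.25), and Rbl1, which encodes the pocket protein p107 (-0.14), fell with loess, and both turned positive with median centring, at 0.23 and 0.41. Over all 106 other pathway genes tested 42 rose (39.6%) and 21 fell (19.8%), with a median of 0.08, which lies between the values of the 35 genes and those of all genes.

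**Figure D5:**
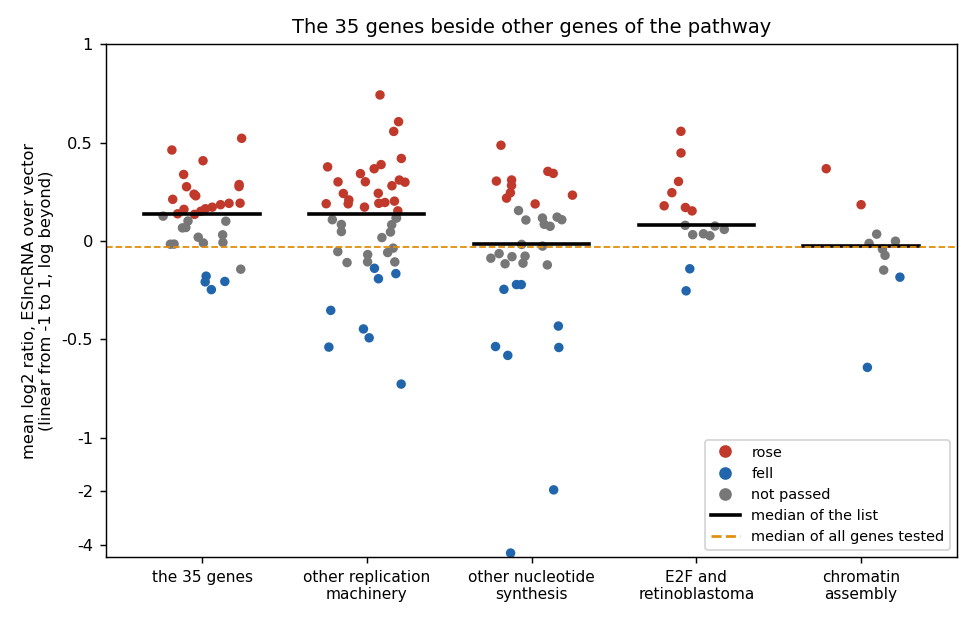
Mean log2 ratio of ESlncRNA over vector after loess (y axis, linear from -1 to 1 and logarithmic beyond) of each gene of 5 lists, coloured by call; black bars are list medians and the dashed line the median of all genes tested. The 35 genes and the other replication machinery share a median of 0.14, while nucleotide synthesis spreads widest and reaches -4.47; with median centring the list of 35 genes has no gene that fell.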

How the data were processed

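The arrays of replicates 1 and 2 were analysed, each with ESlncRNA in Cy5 and vector in Cy3, per the labels. Per the file headers, the images were read with Feature Extraction 10.1.1.1. The deposited spot values used here are intensities, the mean signal and median local background of each channel. Feature Extraction's processed intensities are background-subtracted and dye-normalised, per the file headers. The deposited log10 ratio served only to check the direction, and its correlation with the processed signals' ratio was 0.986 and 0.992. The submitters' processing notes name limma, with no version, for the deposited log2 values. These matched loess ratios without background subtraction (r = 0.99996 on both arrays), had medians of -0.02 and -0.01, and took their scale and direction from that match.

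Background correction here used normexp (offset 50), followed by loess within each array, control spots and the 284 and 308 marked spots of 59305 having weight 0 (R 4.3.3, limma 3.58.1). Repeated spots were averaged. The 26791 probes kept were those that on both arrays stood well above background in 1 channel or both, and a gene was read from its brightest kept probe. The limma model had an intercept only (residual degrees of freedom 1, prior 5.27), with Benjamini-Hochberg adjustment over all kept probes. Channel signals were taken after loess and Aquantile. For a bound, the bright channel was divided by the dim signal or, where that was lower, by the lowest signal that counted as well above background. On simulated arrays of 26791 probes for this comparison the steps recovered 84% of changes of 0.25 and 4% of changes of 0.125 on the log2 scale, and called 0.959% of unchanged probes. Only 50 probes were changed per size there, while 63.1% of all genes were called in these data. The adjustment therefore sets another cutoff here, and the simulated rates do not carry over to the calls above. The genes and lists were chosen with earlier results of these data known. Every one of the 35 genes was named, and of other lists the 3 highest that rose and 3 lowest that fell. Accessions of 41 of 42 probes matched the symbol in RefSeq. Probe coordinates are those of the files (mm9), and 35 of 42 span 60 bases. Both arrays share the dye orientation, and the array number limits the precision.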

Additional observations from a re-analysis of the deposited data

How the results depend on the processing

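With median centring 34 of the 35 genes rose and 0 fell (median 0.84), 99 and 3 of the other pathway genes (0.68) and 12521 and 3640 of all genes (0.34). With the processed signals 1 of the 35 fell (median 0.20), 10 other pathway genes fell (0.20) and 4706 of all genes (0.11). With a normexp offset of 0, 9 of the 35 rose and 2 fell, and the medians were 0.129, 0.076 and -0.042. Without background subtraction the medians were 0.135, 0.069 and -0.049. With the deposited log2 values 11 of the 35 rose, and the medians were 0.14, 0.068 and -0.050. With both channels above background the medians were 0.14 for 34 genes of the set (Chek1 dropped out) and -0.0050 for the 17254 genes left, averaging the probes of each gene gave 0.15 for the 35 genes, and with no filter on dim probes 0.0028 for all genes. The array was the block that paired the 2 channels. With no replicate block 9 of the 35 genes rose and 1 fell, 26 other pathway genes rose and 3452 of all genes rose. Leaving out 1 array left no test, and the medians ranged from 0.144 to 0.146 for the 35 genes, 0.065 to 0.073 for the other pathway genes and -0.035 to -0.032 for all genes. With median centring these ratios changed sign: Mcm6 (0.83), E2f1 (0.60), E2f8 (0.47), Uhrf1 (0.55), Hells (0.22), Gins1 (0.64), Gins2 (0.39), Timeless (0.68), Lin54 (0.23), Rbl1 (0.41), Rbbp4 (0.21), Ssrp1 (0.70), Nme2 (0.44), Rfc2 (0.24), Rfc1 (0.23), Gins3 (0.60), Pold3 (0.56), Rfc5 (0.69), Orc4 (0.29) and Chek1 (0.047). With the processed signals E2f1, Gins1, Timeless, Pold3, Rfc5, Orc4, Chek1 and Hbb-b1 changed sign. Chek1 also turned without background subtraction and with the deposited log2 values. The cause was not tested. Chek1 alone among the 35 was limited by signal over background.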

Other observations

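The histone chaperones and assembly factors that follow the fork went both ways with loess and rose with median centring. Of 10 genes of chromatin assembly 2 rose, 2 fell and 6 did not pass with loess (limma, adjusted p under 0.05), with a median of -0.03, as for all genes. Over all genes 26.3% rose and 36.8% fell with loess. With median centring all 10 rose, with a median of 0.66 against 0.34 for all genes, of which 62.9% rose. Nasp, a chaperone of histone H3 and of linker histones, had ratios of 0.44 and 0.29 (adjusted p = 0.00156), and Supt16h, a subunit of the FACT complex, had 0.16 and 0.21 (adjusted p = 0.0163). Rbbp4, a histone-binding subunit of the CAF complex, had -0.63 and -0.65 with loess, with a signal that went from 37036 to 23903 and from 33665 to 21421. It was 0.21 with median centring. Ssrp1, the partner of Supt16h in FACT, had -0.20 and -0.16 with loess and 0.70 with median centring, so the sign of both genes that fell rests on the scaling.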
